A study of Mus musculus with 32 samples.

Results

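The comparison described here sets the 8 chow-fed mouse livers collected at ZT2 and ZT14 against the 8 collected at ZT8 and ZT20, and it asks which genes alternate every 6 h. Members were taken from the column names of the deposited count table alone, so 16 of the 32 libraries of the series enter. The comparison itself was chosen with earlier results of these data known. All chow mice were wild type and ate normal chow for 2 weeks, in parallel with a second group given a high-fat diet without choline and with little methionine (cdHFD), a dietary model of steatohepatitis. Each of the 4 times (ZT, zeitgeber time in hours) holds 4 chow livers, of which replicates 1 and 2 were male and replicates 3 and 4 were female. The labels give no mouse age or light schedule and do not say that each replicate was a separate animal. All p-values here therefore refer to the spread among these livers, which may be technical.

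Liver RNA levels follow the day through the circadian clock, a feedback loop of transcription factors with a period of 24 h, and through feeding. A shorter rhythm of 12 h has also been described in mouse liver, mainly for genes of protein folding and secretion in the endoplasmic reticulum (ER) and for mitochondrial genes, with the unfolded protein response factor XBP1 as a driver. The unfolded protein response raises chaperones and transport genes when unfolded protein builds up in the ER. The 4 collection times allow 1 contrast of 12 h shape, in which a 12 h rhythm and a 24 h wave that is not a sine curve cannot be told apart.

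Total counts ranged from 30.5 to 54.6 M (M, mega) per chow library, and 16160 genes passed the expression filter. The tissue label held: Alb took 5.92% to 10.8% of all counts, and the summed level of 30 hepatocyte genes was 179600 to 245700 CPM (counts scaled to a common library total) over the livers. ZT2 replicate 2 stood far above the other 3 livers of its time for Creld2, Syvn1, Stx5a and Zfp9. Without it their log2 differences in the 12 h contrast were 1.02, 0.89, 0.53 and 1.61, and all 4 remained called (edgeR adjusted p = 0.00734, 0.0303, 0.0155 and 0.00182). CPM values below are scaled over the chow libraries by TMM, a factor per library that assumes most genes do not change.

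In the 12 h contrast 844 of 16160 genes (5.22%) passed an adjusted p of 0.05 (edgeR quasi-likelihood, Benjamini-Hochberg). Of these 552 (3.42%) were higher at ZT2 and ZT14, called the high phase below whatever the gene, and 292 (1.81%) were lower. For 717 of the called genes (4.44% of those tested) the 4 time means also alternated strictly, with both ZT2 and ZT14 above, or both below, ZT8 and ZT20, 486 of them (3.01%) upward and 231 (1.43%) downward. That order alone, with no test, was met by 5671 genes (35.1%). The 2 differences of 24 h shape, ZT2 against ZT14 and ZT8 against ZT20, were tested together in the same fit and called 2509 genes (15.5%).

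The number of calls depended strongly on single libraries, as the plot of calls by setting shows. Leaving out 1 chow library at a time gave 195 to 2462 calls, and 12 of the 16 libraries moved the count by more than 1.5 times. The count fell to 316 without ZT2 replicate 2, 257 without ZT2 replicate 3, 267 and 273 without ZT8 replicates 1 and 4, 257, 481 and 222 without ZT14 replicates 2, 3 and 4, and 195, 279 and 386 without ZT20 replicates 2, 3 and 4. It rose to 2462 without ZT2 replicate 4 and to 1937 without ZT14 replicate 1. All 844 genes kept the sign of their difference in each of these 16 fits. Each fit reuses most of the libraries in which the genes were picked, so the kept signs are no separate support. Scaling by total counts alone called 772 genes, of which 43.3% were higher at ZT2 and ZT14, against 65.4% under TMM.

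**Figure D1:**
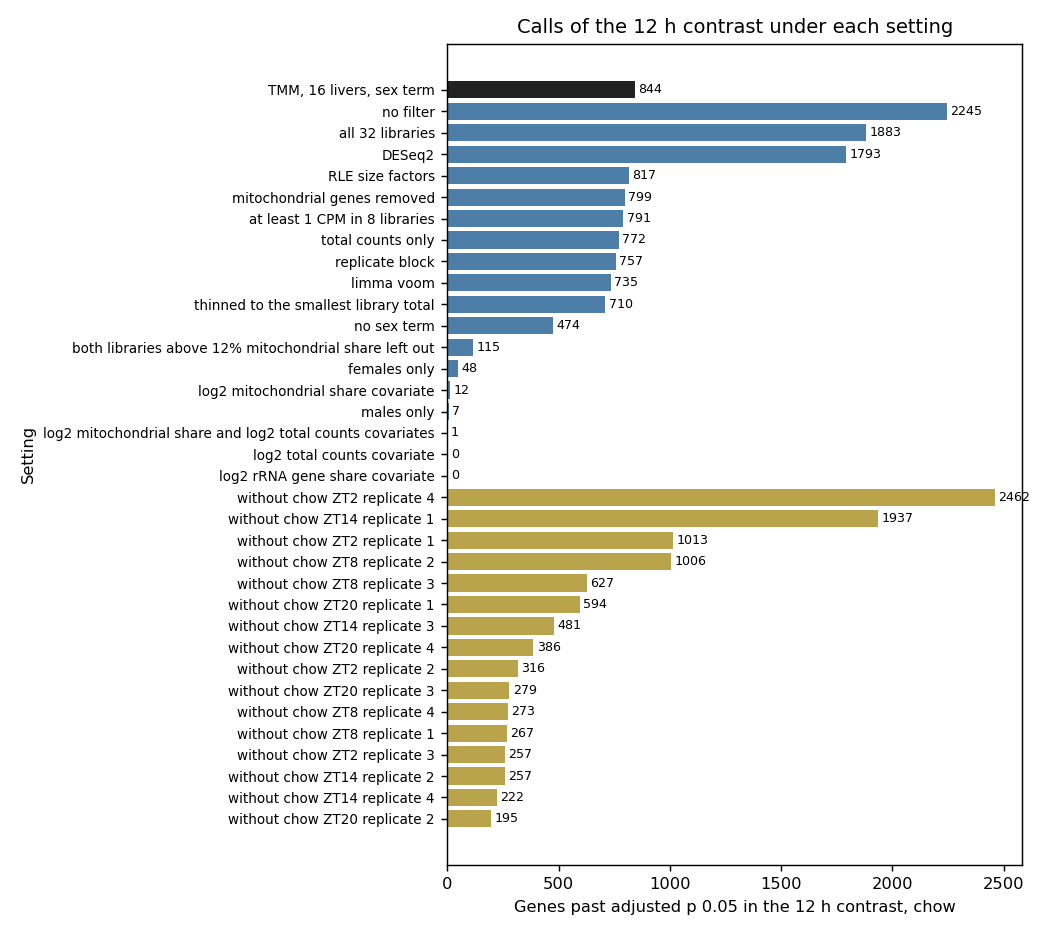
Number of genes past an adjusted p of 0.05 in the 12 h contrast of the chow livers (bar length) under each setting. The black bar is the fit described in the text with 844 calls, blue bars change the processing, the covariates or the libraries, and yellow bars leave out 1 library each, giving 195 to 2462 calls.

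Few genes separated the 8 livers of one phase from the 8 of the other. Over all biotypes 23 genes (0.142%) had no overlap, 18 of them (0.111%) high at ZT2 and ZT14 and 5 (0.0309%) low, and 18 of the 23 were protein-coding. These genes were singled out after their values were seen. Of these 18, Tmem39a, Golt1b, Srprb, Ficd, Txndc11 and Cog3 encode proteins of the ER or Golgi. The other 12 were Nfxl1, Zfp9, Nmb, Sdccag3, Zfp369, Sdad1, Dph3, Slx4, Prkrip1 and Zfp346, which were high, and Ank3 and Gm7694, which were low. The share of ER or Golgi genes over all genes tested was not counted, so these names are no result about that class. The promoters of 4 secretory genes are shown first, because they carry letters bound by unfolded protein response factors or by their relatives. They are RefSeq windows of 300 bases (GRCm38.p6) from 250 bases before to 50 after the annotated start, 5′ to 3′. Only the motif matches described below them are in capitals. Matches to another searched motif, CCGGAA, in Golt1b and Tmem39a were left in lower case.
Creld2, chr15:88819396-88819695, plus strand: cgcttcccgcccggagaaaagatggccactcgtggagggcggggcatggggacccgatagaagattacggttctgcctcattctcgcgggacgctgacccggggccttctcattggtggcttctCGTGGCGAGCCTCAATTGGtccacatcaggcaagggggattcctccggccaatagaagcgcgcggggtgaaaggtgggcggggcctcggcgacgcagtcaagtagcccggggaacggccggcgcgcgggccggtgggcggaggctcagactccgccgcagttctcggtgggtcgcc
Srprb, chr9:103202016-103202315, minus strand: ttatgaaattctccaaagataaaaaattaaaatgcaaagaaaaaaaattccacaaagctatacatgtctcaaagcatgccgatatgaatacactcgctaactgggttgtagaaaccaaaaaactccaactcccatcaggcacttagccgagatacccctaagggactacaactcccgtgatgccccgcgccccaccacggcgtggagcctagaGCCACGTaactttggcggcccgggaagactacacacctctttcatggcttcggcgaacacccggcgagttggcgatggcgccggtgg
Golt1b, chr6:142386993-142387292, plus strand: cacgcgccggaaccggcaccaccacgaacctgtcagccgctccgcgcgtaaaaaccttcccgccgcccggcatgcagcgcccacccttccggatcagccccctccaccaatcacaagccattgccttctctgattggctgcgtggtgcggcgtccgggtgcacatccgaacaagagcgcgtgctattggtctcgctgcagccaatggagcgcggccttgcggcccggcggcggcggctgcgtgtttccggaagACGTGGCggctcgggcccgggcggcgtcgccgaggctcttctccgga
Tmem39a, chr16:38562564-38562863, plus strand, the second of its 2 windows: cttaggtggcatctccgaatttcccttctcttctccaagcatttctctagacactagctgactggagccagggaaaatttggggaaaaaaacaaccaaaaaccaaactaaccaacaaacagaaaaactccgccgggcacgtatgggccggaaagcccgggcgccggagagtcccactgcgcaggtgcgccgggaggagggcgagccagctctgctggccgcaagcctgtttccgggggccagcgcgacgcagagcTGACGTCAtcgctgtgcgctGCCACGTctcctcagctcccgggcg

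In the Creld2 window the capitals mark the ER stress response element on the reverse strand, starting at position -126 from the start site. Alg12, which encodes a mannosyltransferase of N-glycan assembly, starts on the opposite strand in a window that overlaps that of Creld2, and the same match lies in both. The capitals in Srprb (position -37), Golt1b (3) and Tmem39a (25) mark GCCACGT or its reverse complement, the core of the unfolded protein response element. Tmem39a also holds the cyclic AMP response element TGACGTCA at position 5. Both strands were searched, and the end of the ER stress response element can overlap the core GCCACGT. Of all 32851 RefSeq promoter windows 0.119% held the ER stress response element, 2.58% the core GCCACGT and 1.79% TGACGTCA. Of the 10652 tested protein-coding genes with a window, 0.178%, 4.38% and 3.39% held the motif in any of their windows. These shares are per gene and the former per window, so their sizes cannot be compared directly. The genes shown were picked for their matches. The window of Ficd held none of these motifs, and Ctsl and Hsd17b7, which were not called, held the core. A match is a description of letters, not of binding. Shares over the called genes are not given, since only 78.4% of the tested protein-coding genes matched a window by symbol.

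Tmem39a, an ER membrane protein gene on chromosome 16 (38558698 to 38592162), was about 2 times as high at ZT2 and ZT14. Its levels were 16.7, 29.1, 21.0 and 18.4 CPM at ZT2 (replicates 1 to 4), 9.09, 8.74, 11.04 and 7.31 at ZT8, 18.1, 20.5, 14.5 and 18.01 at ZT14, and 9.10, 8.67, 10.2 and 10.6 at ZT20. Every liver of the high phase lay above every liver of the low phase, and the 2 sexes moved alike (log2 difference 0.87 in females and 1.23 in males). The log2 difference was 1.05 ± 0.128 (SE; adjusted p = 0.000961, edgeR quasi-likelihood), and leaving out any one library left it between 0.95 and 1.11 and called.

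Nfxl1, a zinc finger gene of the NFX1 family on chromosome 5, showed the same saw-tooth. It stood at 17.8, 16.2, 14.5 and 12.7 CPM at ZT2, at 9.51, 8.74, 9.19 and 10.4 at ZT8, at 19.1, 18.9, 15.72 and 21.1 at ZT14, and at 10.1, 8.25, 9.61 and 10.4 at ZT20. The lowest high-phase liver (12.7) was above the highest low-phase liver (10.4), and the log2 difference was 0.82 ± 0.0844 (SE; adjusted p = 0.00106, edgeR). Golt1b, whose product acts in vesicle transport between ER and Golgi, had 5.33, 6.27, 4.37 and 6.65 CPM at ZT2, 3.88, 3.44, 3.15 and 2.86 at ZT8, 6.36, 6.78, 5.89 and 8.40 at ZT14, and 3.71, 3.36, 3.94 and 3.46 at ZT20. Its phases also did not overlap, with a log2 difference of 0.83 ± 0.104 (SE; adjusted p = 0.0036, edgeR).

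Srprb encodes the subunit that holds the receptor of the signal recognition particle in the ER membrane. Its CPM were 22.5, 31.6, 19.1 and 23.6 at ZT2, 13.02, 17.0, 14.5 and 10.4 at ZT8, 25.7, 26.3, 18.4 and 35.2 at ZT14, and 15.4, 14.6, 11.3 and 14.5 at ZT20. The log2 difference was 0.87 ± 0.144 (SE; adjusted p = 0.0036, edgeR), and 18.4 in the lowest high-phase liver stood against 17.0 in the highest low-phase liver. Ficd, the ER enzyme that modifies the chaperone BiP with AMP, averaged 12.2 ± 2.46 CPM (SD, n = 8) in the high phase and 7.48 ± 0.927 in the low phase. Txndc11, an ER thioredoxin-domain gene, averaged 50.7 ± 10.4 and 31.4 ± 3.20 CPM, and Cog3, a subunit of the Golgi tethering complex COG, 18 ± 2.67 and 12.2 ± 0.921 CPM. Their log2 differences were 0.69, 0.69 and 0.55 in that order, and all 3 genes remained called without any one library. Cog3 missed the threshold with both libraries above 12% mitochondrial share left out (adjusted p = 0.0501). The calls of Tmem39a, Nfxl1, Golt1b and Ficd also held with the mitochondrial share of each library as a covariate (adjusted p = 0.0234, 0.0234, 0.0366 and 0.0234, edgeR). None of the 7 stayed called with total counts or the share of the rRNA gene CT010467.1 as covariate. For Tmem39a the log2 difference was then 1.02 (adjusted p = 0.111) and 0.71 (adjusted p = 0.663).

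Creld2, Alg12, Manf, Syvn1, Tmed3, Stx5a and Bhlha15, whose phases overlapped, were also called higher. Creld2, an ER stress gene, had 50.3, 206, 57.1 and 47.3 CPM at ZT2, 26.8, 22.1, 30.6 and 21.0 at ZT8, 104, 127, 59.9 and 174 at ZT14, and 56.9, 52.5, 57.5 and 58.3 at ZT20. The ZT2 livers other than replicate 2 lay within or below the ZT20 range, so the phases overlapped. The log2 difference was 1.41 ± 0.311 (SE; adjusted p = 0.0196, edgeR), and the call was lost without ZT8 replicate 1 or ZT20 replicate 2 and with both libraries above 12% mitochondrial share left out (adjusted p = 0.0566). Its neighbour Alg12 had 21.4, 46.4, 29.2 and 15.3 CPM at ZT2, 7.35, 6.66, 8.23 and 5.09 at ZT8, 16.1, 24.5, 17.7 and 21.0 at ZT14, and 14.3, 12.3, 13.4 and 16.9 at ZT20. ZT2 replicate 4 and ZT14 replicate 1 lay within the ZT20 range. Its log2 difference was 1.25 ± 0.207 (SE; adjusted p = 0.00269, edgeR), and it remained called without any one library. Manf, a secreted ER stress protein gene, rose by 0.81 on the log2 scale, Tmed3, a cargo receptor gene, by 0.87, and Stx5a, which encodes the Golgi fusion protein syntaxin 5, by 0.74. Stx5a lost its call without ZT14 replicate 4 or ZT20 replicate 2. Syvn1, the ubiquitin ligase of ER-associated degradation, was at 180, 763, 233 and 153 CPM at ZT2, 63.7 to 115 at ZT8, 122 to 344 at ZT14 and 137 to 169 at ZT20, so that ZT20 overlapped ZT2 and ZT14. It rose by 1.26, a call lost without any of 9 libraries. Bhlha15, the secretory cell transcription factor MIST1, had the largest log2 difference of the genes named by the fixed rule, 2.75, at a mean of 1.95 CPM in the high phase and 0.21 CPM in the low phase, and lost its call without ZT14 replicate 4 or ZT20 replicate 2.

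Most members of the pathway lists were not called. Of 34 ER chaperone and unfolded protein response genes, 3 were called higher and 0 lower (8.82%, against 5.22% of all genes), with a median log2 difference of 0.16, against 0.01 over all genes. Of 34 translocation and N-glycosylation genes 4 were called higher (Srprb, Alg2, Sec11c and Sec61g) and 0 lower, with a median of 0.04 that was -0.01 under scaling by total counts. Of 37 ER to Golgi transport genes 3 were called higher (Tmed3, Stx5a and Preb) and 0 lower, with a median of -0.04. Among 50 ribosome biogenesis genes 8 (16%) were called higher and 0 lower, among them Nop56, a core protein of box C/D snoRNPs, which rose by 0.62 and lost its call without ZT2 replicate 3, ZT14 replicate 2 or ZT20 replicates 2 or 3. Of 21 genes of the ATF4 stress response 3 were called higher and 1 lower, with Ddit3, the stress factor CHOP, at 1.29 ± 0.264 (log2 difference, SE; adjusted p = 0.00743, edgeR).

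Of 30 heat shock genes tested 6 (20%, against 5.22% called over all genes) were called higher and 0 lower, and 24 were not called. The 24 h components called 20 of the 30, against 15.5% of all genes, and 5 of the 30 alternated strictly. Bag3, a co-chaperone of HSP70, was at 40.9, 50.7, 39.4 and 33.7 CPM at ZT2, 36.5, 29.2, 27.5 and 25.7 at ZT8, 99.3, 76.2, 67.9 and 68.9 at ZT14, and 39.0, 43.0, 35.5 and 45.1 at ZT20. ZT14 stood above all other livers and ZT2 overlapped ZT20, and the log2 difference was 0.70 ± 0.0873 (SE; adjusted p = 0.00268, edgeR) beside a 24 h component (adjusted p = 0.000319). Hspa1a and Hspa1b, which encode near-identical HSP70 proteins so that reads may be split between them, rose by 2.03 and 1.51. Their levels at ZT14 were 0.929 to 8.87 and 27.4 to 108 CPM. At ZT2 they were 0.117 to 2.27 and 4.14 to 21.2 CPM, which for both genes overlapped ZT8 and ZT20. Hspa1b did not alternate strictly, and its 24 h component had an adjusted p of 0.00213 (edgeR). Hspa8, the constitutive HSC70 gene, rose by 0.69 and lost its call without ZT20 replicate 2.

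**Figure D2:**
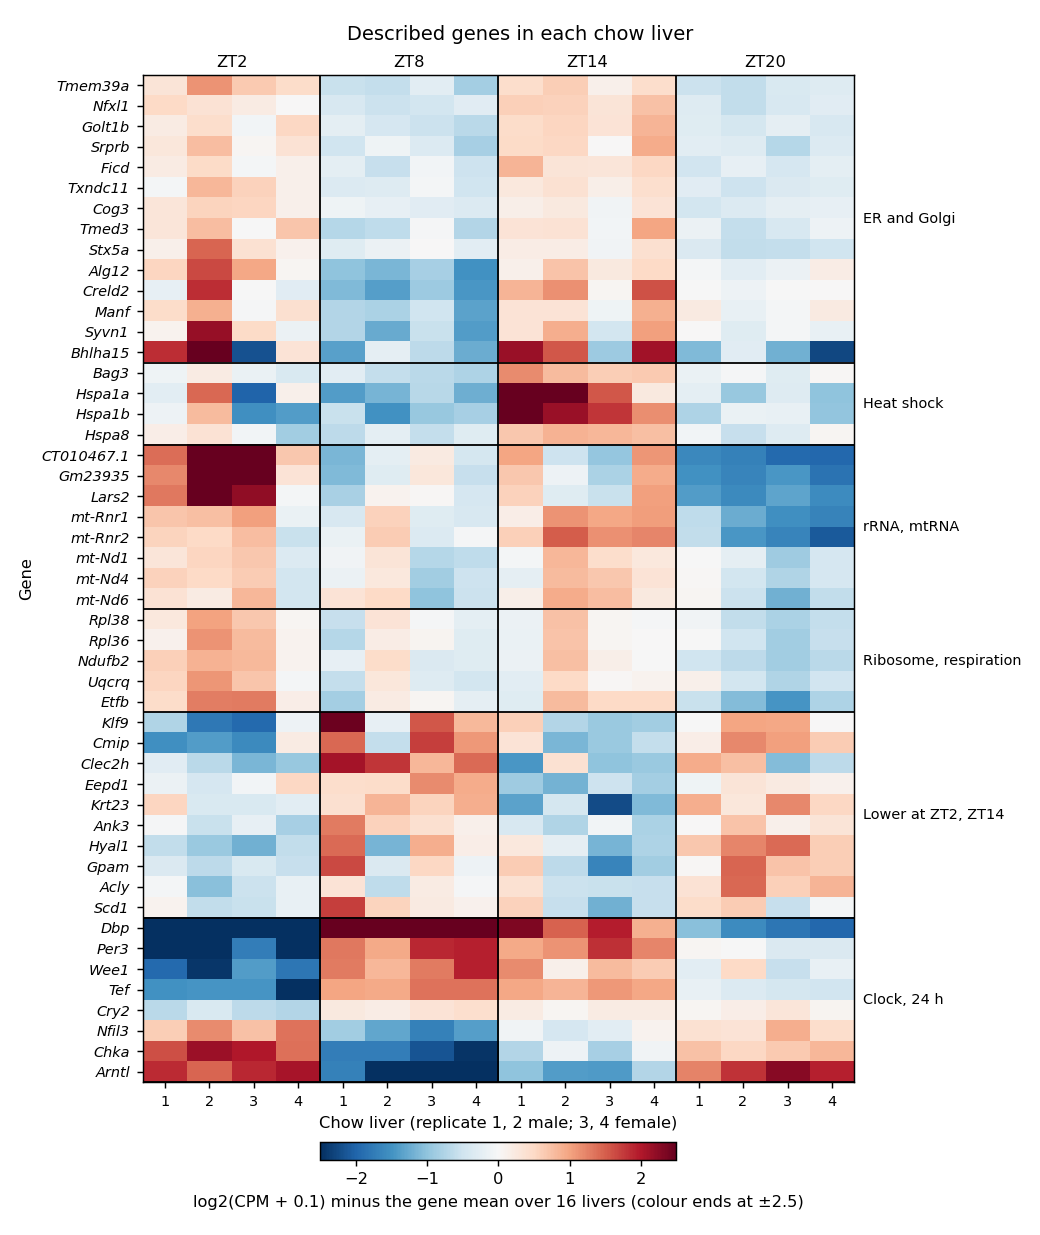
Level of described genes (rows, in 6 groups) in each of the 16 chow livers (columns, 4 per time, replicates 1 to 4), as log2(CPM + 0.1) minus the mean of the gene over the 16 livers, red high and blue low. ER and Golgi genes are red at ZT2 and ZT14 in most livers, ribosomal RNA is deepest red in ZT2 replicates 2 and 3, and Dbp is blue at ZT2 and red at ZT8.

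Among RNAs of the ribosome, cytosolic and mitochondrial rRNA genes were called higher. The rRNA gene CT010467.1 on chromosome 17 (39846353 to 39848827), whose product is not polyadenylated, had 2540, 9238, 7202 and 1537 CPM at ZT2, 439, 819, 1128 and 714 at ZT8, 1919, 681, 498 and 2069 at ZT14, and 316, 301, 254 and 247 at ZT20. All ZT2 livers were above all ZT8 livers and all ZT14 livers above all ZT20 livers, but ZT14 replicates 2 and 3 lay within the ZT8 range. The log2 difference was 2.46 ± 0.447 (SE; adjusted p = 0.00814, edgeR) and stayed called without any one library. Gm23935, annotated as a microRNA gene, and Lars2, the mitochondrial leucyl-tRNA synthetase gene, were also highest in ZT2 replicate 2, at 8392 and 1920 CPM, and stood at 226 and 95.5 CPM in ZT20 replicate 4. Their log2 differences were 2.28 and 1.96, and with the share of CT010467.1 as a covariate they were 0.03 and 0.01. Whether reads of rRNA were counted on Gm23935 or Lars2 was not tested. Rn7sk, the 7SK RNA that holds back transcription elongation, had 6.61, 25.5, 19.5 and 5.55 CPM at ZT2, 1.29 to 3.75 at ZT8, 1.06 to 5.67 at ZT14 and 0.946 to 1.67 at ZT20. ZT14 overlapped both ZT8 and ZT20. It rose by 2.00, a call lost without ZT20 replicate 2. In all, 16 of 90 tested genes annotated as ribosomal, transfer, small nuclear, small nucleolar, micro or other short RNAs were called higher and 0 lower, with a median log2 difference of 0.41. Over all genes tested 3.42% were called higher and 1.81% lower. Some of the 16 rest on few counts, such as Mir122 (mean 0.647 CPM in the high and 0.172 in the low phase) and Gm23346 (0.300 and 0.0350 CPM).

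Both mitochondrial rRNA genes and 3 protein genes of the mitochondrial genome were called higher. The 12S rRNA gene mt-Rnr1 was at 1698, 1755, 2115 and 927 CPM at ZT2, 791, 1553, 851 and 794 at ZT8, 1175, 2274, 2027 and 2147 at ZT14, and 672, 441, 360 and 326 at ZT20. Apart from ZT8 replicate 2, all low-phase livers were below all high-phase livers. Its log2 difference was 1.42 ± 0.234 (SE; adjusted p = 0.00241, edgeR), and that of the 16S gene mt-Rnr2 was 1.45. Of the 13 protein genes of the mitochondrial genome 3 (23.1%) were called, all higher, against 3.42% of all genes called higher. They were mt-Nd1, mt-Nd4 and mt-Nd6 of complex I, with log2 differences of 0.69, 0.75 and 0.78. The other 10 had differences from 0.03 (mt-Nd4l) to 0.84 (mt-Atp6), and the median of the 13 was 0.61. The call of mt-Nd1 was lost without any of 9 libraries. With the mitochondrial share of each library as a covariate, a measure made of these same genes, the median was -0.03.

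Most nuclear genes of ribosome and respiratory chain were not called. Over all genes tested 5.22% were called, with 3.42% higher and 1.81% lower. Of 81 cytosolic ribosomal protein genes 5 (6.17%) were called higher and 0 lower, 70 had a positive difference, and the median log2 difference was 0.26. Rpl38 was at 165 to 317 CPM at ZT2, 106 to 202 at ZT8, 144 to 263 at ZT14 and 92.0 to 149 at ZT20. ZT8 overlapped both ZT2 and ZT14. It rose by 0.66, a call lost without any of 10 libraries. Of 75 nuclear subunits of the respiratory chain 10 (13.3%) were called higher and 0 lower, and the median was also 0.26. Ndufb2, a subunit of complex I, was at 13.2 to 22.9 CPM at ZT2, 9.68 to 17.3 at ZT8, 11.3 to 21.1 at ZT14 and 6.83 to 8.90 at ZT20. Only ZT8, through replicate 2 at 17.3, overlapped the high phase. It had a log2 difference of 0.79 ± 0.152 (SE; adjusted p = 0.00766, edgeR). Etfb, which passes electrons from fatty acid oxidation to the respiratory chain, averaged 125 ± 46.3 CPM (SD, n = 8) in the high phase and 55.9 ± 21.9 in the low phase, and its log2 difference of 1.197 held without any one library. By edgeR 0 of 32 genes of mitochondrial chaperones, proteases and import were called (9 at an unadjusted p below 0.05), and 0 of 19 of the citric acid cycle (7 unadjusted), with a median of -0.20. Of the nuclear-retained noncoding RNAs Malat1 was at 47.9 to 116 CPM at ZT2, 46.7 to 69.0 at ZT8, 60.0 to 77.5 at ZT14 and 36.0 to 48.5 at ZT20, with overlap between the phases. It rose by 0.61, a call lost without any of 7 libraries.

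Library measures changed between the same phases. Mitochondrial genes took 8.09%, 8.78%, 12.7% and 5.93% of counts at ZT2, 7.45%, 8.14%, 5.08% and 5.48% at ZT8, 7.16%, 13.1%, 10.4% and 9.46% at ZT14, and 8.13%, 6.97%, 5.93% and 6.96% at ZT20. The mean was 9.46% ± 2.54 (SD, n = 8) at ZT2 and ZT14 and 6.77% ± 1.16 at ZT8 and ZT20 (two-sided exact permutation p = 0.0148, 0.0490 after Benjamini-Hochberg adjustment over 9 library measures). ZT2 replicates 1 and 4 and ZT14 replicate 1 lay within the range of the low phase. Within the sexes, 4 livers against 4, the difference was 1.61 percentage points in males (exact permutation p = 0.286) and 3.77 in females (p = 0.0857), where the smallest p possible is 0.0286. Total counts went the other way, with 33.2 ± 2.00 M in the high phase and 41.3 ± 7.26 M in the low phase (exact permutation p = 0.00606, adjusted 0.0490). ZT8 replicate 4 held 54.6 M, and without it the difference was still -6.15 M. The difference of total counts was -2.93 M within males (exact permutation p = 0.314) and -13.2 M within females (p = 0.0286, the smallest possible).

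Of the other 7 measures 2 passed the same adjustment. The 10 most abundant genes took 24.5% ± 2.31 (SD, n = 8) of counts in the high phase and 21.9% ± 1.28 in the low phase (adjusted exact permutation p = 0.0490), and cytosolic ribosomal protein genes took 2.24% ± 0.163 and 1.96% ± 0.254 (adjusted p = 0.0493). The Alb share, the number of genes with at least 10 counts, the TMM factor and the globin and Malat1 plus Neat1 shares gave adjusted p from 0.201 to 0.620. Outside that family, and picked with its values known, the share of CT010467.1 averaged 0.319% ± 0.318 and 0.0526% ± 0.0308 (exact permutation p = 0.00264). ZT14 replicate 2, with the highest mitochondrial share, had 0.0660% on CT010467.1 and the highest mitochondrial rRNA share (0.468%). ZT2 replicate 3, next in mitochondrial share, had 0.756% on CT010467.1, the second highest.

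**Figure D3:**
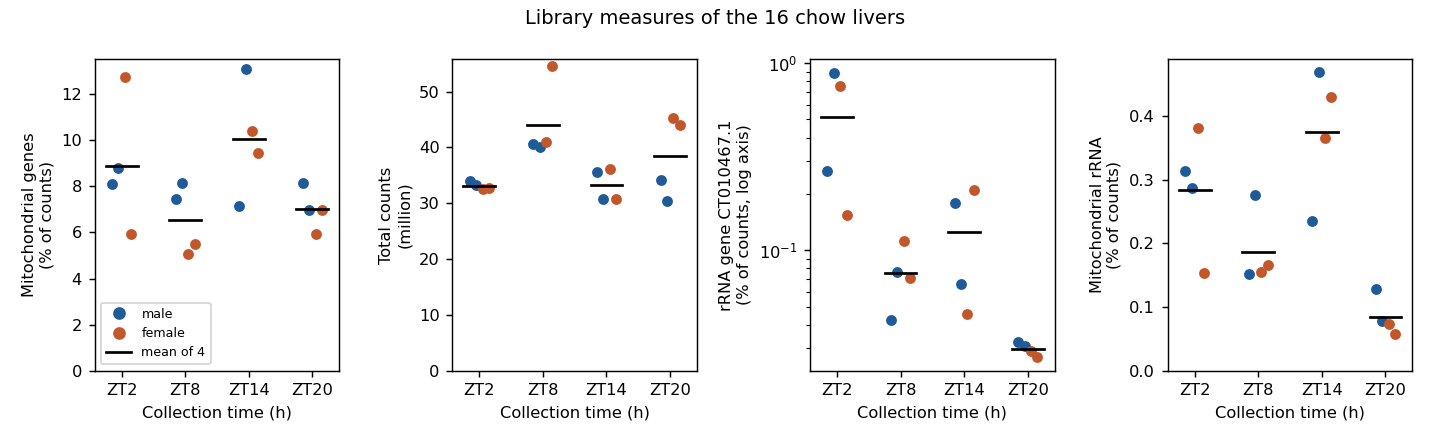
Share of counts on mitochondrial genes, total counts, share of the rRNA gene CT010467.1 (log axis) and share of both mitochondrial rRNA genes in each chow liver by collection time, with males blue, females orange and a black line at the mean of 4. The mitochondrial share averaged 9.46% at ZT2 and ZT14 and 6.77% at ZT8 and ZT20, while total counts averaged 33.2 and 41.3 M.

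Mitochondrial share and total counts were related across the 16 chow libraries, and not beyond chance within a phase. Pearson's r was -0.57 (permutation p = 0.00756) and Spearman's rho -0.56 (p = 0.0255), as the only relation tested. Without the 2 libraries farthest from the median mitochondrial share r was -0.53 (permutation p = 0.0426) and rho -0.45 (p = 0.107). Within the 8 livers of ZT2 and ZT14 r was -0.38 (exact permutation p = 0.356; rho -0.38, p = 0.360), and within ZT8 and ZT20 it was -0.56 (exact permutation p = 0.150; rho -0.69, p = 0.0694).

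The contrast was refitted with library measures as covariates. With the log2 mitochondrial share as a covariate 12 genes were called (0.0743%) and 1259 (7.79%) had an unadjusted p below 0.05, with 11 of the 12 among the 844. All 844 kept their sign, the median size of their log2 difference went from 0.70 to 0.48, and the SE grew 1.17 times, with 55.3% of the variance of the covariate lying outside time and sex. With log2 total counts as covariate edgeR called 0 genes, with 1284 at an unadjusted p below 0.05, a median size of 0.64 and an SE 1.51 times larger. With the log2 share of CT010467.1 it called 0, with 796 at an unadjusted p below 0.05, and 832 of the 844 kept their sign. The phases differ in all 3 measures, so collection time and these measures cannot be told apart by such a fit. The 12 genes were Chka, Ficd, Hspa1a, Nfxl1, Per3, Tmem39a, Clec2h, Hspa1b, Bag3, Dbp, Golt1b and Dnajb9. Within time and sex, 271 genes (1.68%) had a slope on mitochondrial share, 71 of them (0.439%) positive and the rest negative, and 0 had one on total counts by edgeR.

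Genes that were lower at ZT2 and ZT14 included regulatory, structural and lipid synthesis genes. Clec2h, a C-type lectin gene, was at 4.93, 3.72, 2.67 and 3.05 CPM at ZT2, 25.8, 20.9, 10.8 and 16.1 at ZT8, 2.12, 7.82, 2.91 and 3.11 at ZT14, and 11.46, 10.1, 2.78 and 3.75 at ZT20. ZT8 was above all other times apart from overlap of its lowest liver with ZT20, and the log2 difference was -1.49 ± 0.268 (SE; adjusted p = 0.00282, edgeR). Eepd1 was at 16, 13.3, 16.9 and 25.5 CPM at ZT2, 24.1, 24.3, 40.5 and 34.0 at ZT8, 9.57, 7.82, 12.3 and 9.81 at ZT14, and 16.6, 22.1, 20.7 and 19.2 at ZT20, with ZT2 replicates 3 and 4 inside the low-phase range. It fell by 0.89 (SE 0.117; adjusted p = 0.00172, edgeR). Ank3, the membrane scaffold ankyrin-G, fell by 0.90 with no overlap between phases, at 6.80 to 12.0 CPM at ZT2 and ZT14 and 12.3 to 30.2 CPM at ZT8 and ZT20. Krt23, a keratin gene, fell by 1.42, and these 4 genes kept their calls without any one library.

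The 12 strictly alternating lower genes named by the fixed rule, Clec2h and Krt23 among them, had log2 differences from -1.67 to -1.18. Klf9, a glucocorticoid-induced transcription factor gene, was at 5.79, 2.77, 2.49 and 9.03 CPM at ZT2, 54.5, 8.58, 29.1 and 17.3 at ZT8, 14.98, 5.90, 5.10 and 5.35 at ZT14, and 9.79, 19.5, 19.2 and 9.88 at ZT20. The log2 difference was -1.67 ± 0.442 (SE; adjusted p = 0.036, edgeR), and the call was lost without any of 12 libraries. In fatty acid and triglyceride synthesis 3 of 28 genes (10.7%) were called, all lower. Over all genes tested 5.22% were called, and 1.81% were called lower. The 3 were Acly, which makes cytosolic acetyl-CoA (-0.77), Gpam, the first acyltransferase of glycerolipid synthesis (-1.18), and the desaturase Scd1 (-0.74). Each of these calls was lost without any of 11 to 13 libraries. Cebpa, a hepatocyte transcription factor gene, fell by 0.49 and lost its call without any of 9 libraries. Each gene here and above whose call was lost without 7 or more libraries lost it without ZT14 replicates 2 and 4 and ZT20 replicate 2. Markers of other cell types gave 1 edgeR call of 16 for endothelium (Egfl7, higher), 0 of 16 for Kupffer cells (4 at an unadjusted p below 0.05), 0 of 16 for stellate cells (3), 0 of 10 for bile duct cells (0) and 0 of 8 for red blood cells (2). Summed endothelial markers were 226.9 to 444.5 CPM in the high phase and 211.9 to 418.2 CPM in the low phase, and adipocyte genes 207.3 to 3725 and 612.4 to 3139 CPM. Their part in these results was not tested. In bulk liver, fewer cells of a type and less RNA per cell cannot be told apart.

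Type and length of the called genes are given as a description. Of 13582 protein-coding genes 3.05% were called higher and 1.79% lower, and of 1585 long noncoding or unconfirmed transcripts 5.36% and 1.77%. The median genomic span of protein-coding genes called higher was 13220 bases, against 34470 for those called lower and 23580 for all tested, and the median exonic length was 3834, 4719 and 4358 bases.

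Of the clock genes described here, Dbp, Per3, Wee1, Tef and Cry2 did not alternate strictly. Dbp, a clock-driven transcription factor gene, was at 0.482, 0.819, 1.203 and 0.701 CPM at ZT2, 138, 154, 340 and 300 at ZT8, 70.4, 38.7, 54.2 and 25.7 at ZT14, and 6.68, 4.57, 3.88 and 3.48 at ZT20. It rose from ZT2 to ZT8 and fell through ZT14 to ZT20, and the 12 h contrast was -2.37 ± 0.290 (SE; adjusted p = 0.000941, edgeR) beside a 24 h component with an adjusted p of 4.18e-08. The means of Per3, Wee1 and Tef were likewise lowest at ZT2, highest at ZT8 and lower again at ZT14 and ZT20, with 12 h contrasts of -1.32, -1.23 and -0.78. Cry2 was low at ZT2 alone, with means of 21.1, 39.6, 36.3 and 35.7 CPM at ZT2, ZT8, ZT14 and ZT20 and a contrast of -0.44. Chka, choline kinase alpha, was at 201 to 344 CPM at ZT2, 14.2 to 23.4 at ZT8, 43.9 to 72.9 at ZT14 and 111 to 138 at ZT20, a contrast of 1.36. Of 15 core clock genes 1 was called higher (Arntl, whose call was lost without any of 14 libraries) and 3 lower in the 12 h contrast, 14 by the 24 h components, and 1 of the 15 alternated strictly. Of 11 clock output genes 1 was called higher (Nfil3, a repressor that opposes Dbp, at 0.79) and 4 lower, 10 by the 24 h components, and 0 alternated strictly. Over all genes tested 5.22% were called in the 12 h contrast and 15.5% by the 24 h components, and 35.1% alternated strictly with no test.

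**Figure D4:**
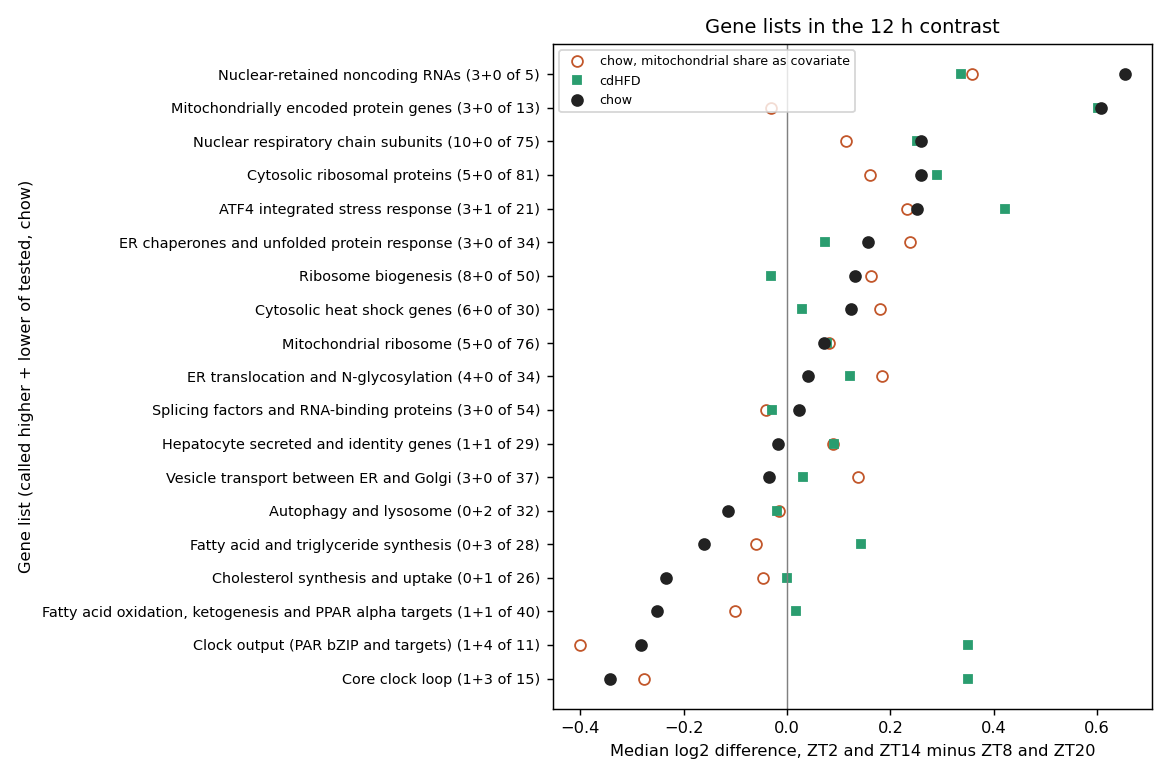
Median log2 difference of ZT2 and ZT14 minus ZT8 and ZT20 over the tested members of each gene list (rows, with the number called higher and lower of those tested in chow), in chow (black), in chow with mitochondrial share as a covariate (open) and in cdHFD (green). Mitochondrially encoded genes sit at 0.61 in chow and -0.03 with the covariate, and both ribosomal and respiratory chain lists sit at 0.26 in chow.

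The half-cycles, which share no library, were fitted alone. ZT2 against ZT8 called 1312 genes (8.12%) and ZT14 against ZT20 called 1480 (9.16%). Of the first list 30.1% had the same sign in the second half-cycle, of the second list 33.0% had the same sign in the first, and over all genes the share was 46.9%. Called in both with the same sign were 37 genes, 2.82% of the first list and 2.5% of the second, and 313 were called in both with opposite signs. With the times paired as ZT2 against ZT20 and ZT14 against ZT8, 311 (1.92%) and 540 (3.34%) genes were called, 64.6% and 46.7% of them had the same sign in the other pair, against 57.6% over all genes, and 7 were called in both with the same sign. Tmem39a, Nfxl1, Srprb, Cog3 and Creld2 were among those called higher in both ZT2 against ZT8 and ZT14 against ZT20. For Tmem39a these log2 differences were 1.21 (adjusted p = 0.0107, edgeR) and 0.86 (adjusted p = 0.00369).

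The sexes gave no called difference. Over 8 cells of time and sex edgeR called 0 genes for the female minus male difference, with 447 (2.77%) at an unadjusted p below 0.05, and the 12 h contrast called 1 gene (0.00619%) in females and 17 (0.105%) in males in that fit. Male-biased members of the major urinary protein family, Mup8 and Mup12, are among the genes named by the fixed rule, and reads may be shared between the copies of this family. Outside that family, the rule also named Gm47283 on the Y chromosome, the second largest difference at 2.68. It had 105 CPM in ZT2 replicate 3, a female, and its counts are uncertain.

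CT010467.1, mt-Rnr1 and Lars2 were also called in cdHFD livers. Tmem39a, Nfxl1, Golt1b, Alg12, Srprb, Ficd, Txndc11, Cog3 and Creld2 did not pass the test there, and a difference between diets was called for only the first 4 of these 9 (adjusted p from 0.152 to 0.270 for the other 5, edgeR). In a fit of all 32 libraries the same contrast called 196 of 17853 genes (1.10%) in cdHFD and 1883 (10.5%) in chow, and the difference between diets was called for 10 genes (0.056%). CT010467.1 had a log2 difference of 2.22 (adjusted p = 0.00286), mt-Rnr1 of 1.24 (adjusted p = 0.00109) and Lars2 of 1.87 (adjusted p = 0.00256) in cdHFD by edgeR, and the difference between diets was called for none of the 3 (adjusted p = 0.910, 0.871 and 0.973). In the cdHFD livers the mitochondrial share averaged 5.74% ± 1.10 (SD, n = 8) at ZT2 and ZT14 and 4.50% ± 0.466 at ZT8 and ZT20 (exact permutation p = 0.00124), and total counts averaged 35.4 ± 5.18 and 41.9 ± 5.11 M (exact permutation p = 0.0255). The sexes were not balanced in cdHFD at ZT14, where replicate 3 was male, while it was female at the other times. These permutation tests held no sex term. Clock genes also differed among the cdHFD livers of ZT2. On the scale of all 32 libraries Dbp was at 1.75, 3.44, 76.4 and 191 CPM there (replicates 1 to 4). Arntl was at 26.8, 17.8, 4.41 and 1.25 CPM. At ZT8 the cdHFD livers had 87.0 to 191 CPM for Dbp and 0.863 to 1.44 for Arntl. How this spread bears on the cdHFD contrasts and the differences between diets was not tested.

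Tmem39a, Golt1b, Nfxl1, Alg12 and Zfp9 alternated in chow and differed between diets. On the scale of all 32 libraries Tmem39a averaged 26.0, 11.1, 21.3 and 11.9 CPM at ZT2, ZT8, ZT14 and ZT20 in chow (SD 6.60, 1.99, 2.82 and 1.25, n = 4) and 20.8, 21.2, 22.4 and 20.8 CPM in cdHFD (SD 3.88, 3.05, 2.82 and 2.20). The cdHFD livers stayed near the high-phase level of chow at all 4 times. The log2 difference was 1.03 in chow and 0.03 in cdHFD, and their difference 0.998 (adjusted p = 0.00838, edgeR). Golt1b averaged 6.90, 4.08, 8.23 and 4.46 CPM in chow and 12.65, 13.95, 13.1 and 11.6 in cdHFD (difference of contrasts 0.80, adjusted p = 0.0139), above every chow mean. Nfxl1 differed by 0.77 (adjusted p = 0.0363), Alg12 by 1.09 (adjusted p = 0.0462) and Zfp9, a zinc finger gene, by 1.67 (adjusted p = 0.0409). Eepd1 and Prkca, lower at ZT2 and ZT14 in chow, differed by -0.99 and -0.84, and Cry2, low in chow at ZT2 alone, by -0.81. Hacl1, a peroxisomal lyase of fatty acid alpha-oxidation, differed by -1.38, with a contrast of 0.10 in chow and 1.48 in cdHFD, and the tenth gene was the low-count Gm2004. The number of genes that differed between diets was 5 to 18 without single chow libraries. It was 5 without ZT8 replicate 1, ZT14 replicate 4 or ZT20 replicates 1, 2 or 3, 6 without ZT2 replicate 2, ZT8 replicate 2 or ZT14 replicates 1 or 2, 17 without ZT14 replicate 3 and 18 without ZT2 replicate 4.

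**Figure D5:**
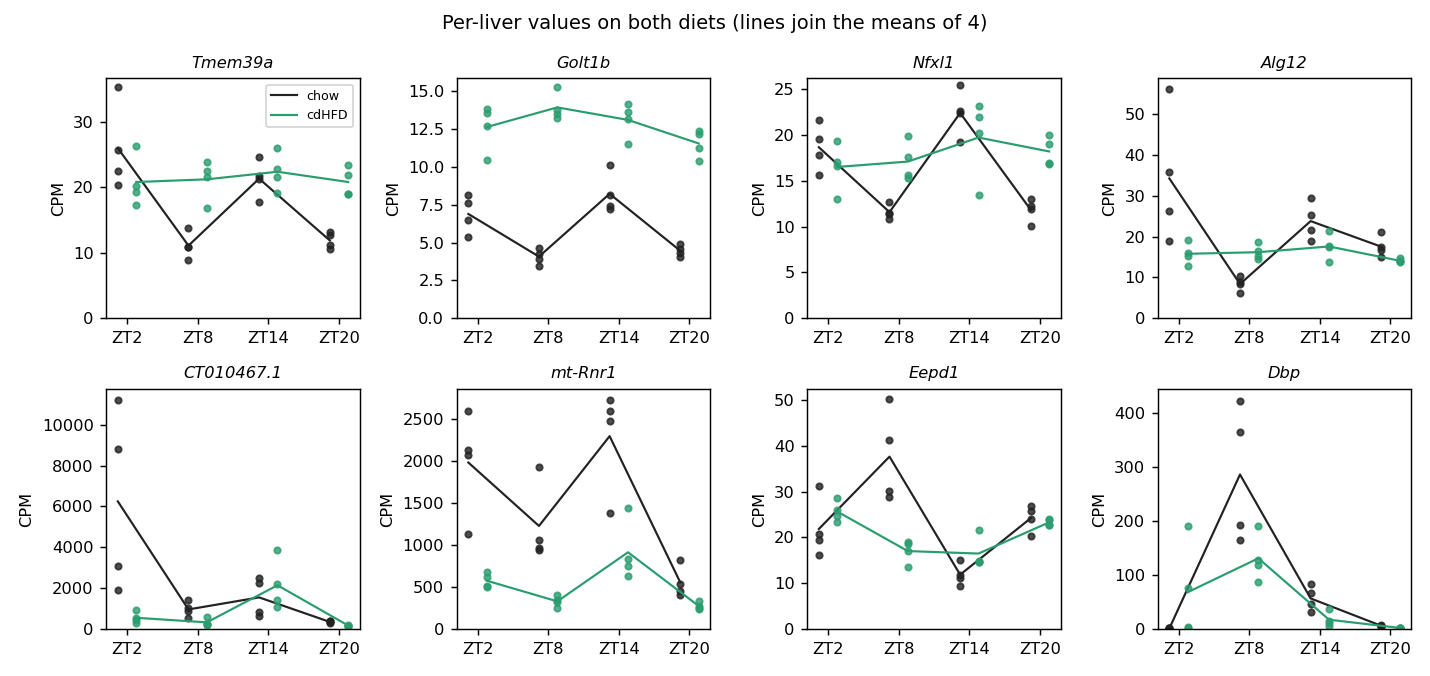
CPM of 8 genes in each liver by collection time, scaled over all 32 libraries, with chow in black, cdHFD in green, points for livers and lines through the means of 4. The means of Tmem39a, Golt1b and Nfxl1 alternate in chow and stay level in cdHFD (Tmem39a means 20.8 to 22.4 CPM). CT010467.1 and mt-Rnr1 alternate on both diets. The mean of Dbp has a single peak at ZT8, while its cdHFD livers at ZT2 spread from 1.75 to 191 CPM.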

How the data were processed

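Poly(A) RNA of mouse liver was sequenced from non-directional paired-end libraries, with RNA integrity above 6.5, per the labels' protocols. The authors deposited raw read counts per gene, and per the submitters' processing notes they used HISAT2, featureCounts and DESeq2 with GRCm38 (mm10). Versions and the handling of reads shared between gene copies are not stated here, being not given in the sources used. Reads of antisense partners cannot be told apart, and intervals and tests on counts cover no error of PCR. Of 54532 gene IDs 54495 were in the GENCODE M21 annotation, which gave biotypes and coordinates.

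R 4.3.3 and edgeR 4.0.16 were applied to the counts (quasi-likelihood, robust, TMM, default expression filter on the 4 times, a sex term, prior count 2) for 16 chow libraries, with Benjamini-Hochberg adjustment over 16160 genes at 0.05. Fits of both diets used 17853 genes. SEs come from linear models of log2 CPM, so they differ in estimator from the edgeR test. Library measures were compared with exact permutation tests in scipy. Named genes are the 12 strictly alternating called protein-coding genes of at least 1 CPM with the largest change in each direction, 3 that do not alternate strictly, up to 4 of each described list by p, and all mitochondrially encoded protein genes. Genes without overlap between phases, genes that differ between diets, genes called with the mitochondrial covariate and short noncoding RNAs were added after their values were seen. The samples, the 55 gene lists and the tests were chosen with earlier results of these data known. Promoters are RefSeq windows of GRCm38.p6.

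On counts drawn with known changes for the 12 h contrast (16160 genes), the test recovered 73.0% of genes changed by 1 and 94.0% of those changed by 2 on the log2 scale, and 4.57% of its calls were unchanged genes. Each gene was drawn on its own, without differences of 24 h shape, of sex or shared by a library beyond its size. These shares therefore need not hold for the calls in the livers. No replicate pair agreed within counting error (lowest chi-square over its degrees of freedom 43.2). Alternatives were other scalings and filters, DESeq2 1.42.0, limma voom 3.58.1, covariates, a replicate block, single sexes, thinned counts and each library left out.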

Additional observations from a re-analysis of the deposited data

Results flagged for a closer look

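In groups of 4 livers, a value was marked when its gap to the nearest liver passed Dixon's critical share of the group's range, and 19 of 256 groups of a library measure or a described gene met this, where chance marks about 1 in 20. Among library measures these were the total counts of ZT8 replicate 4 (54.6 M), the Malat1 plus Neat1 share of ZT14 replicate 2 (0.0887%) and the mitochondrial rRNA share of ZT8 replicate 2 (0.276%). ZT2 replicate 2 was high for Zfp9 (13.6 CPM), Creld2 (206 CPM), Syvn1 (763 CPM) and Stx5a (164 CPM). ZT14 replicate 1 was high for Klf9 (14.98 CPM), Acly (226 CPM) and Cebpa (563 CPM). ZT8 replicate 2 was high for mt-Rnr1 (1553 CPM) and Ndufb2 (17.3 CPM), and ZT14 replicate 2 was high for Rpl38 (263 CPM) and low for Cry2 (33.4 CPM). ZT2 replicate 4 was high for Cmip, a called lower gene (8.27 CPM), and low for Tef (15.04 CPM). The remaining marked values were Krt23 in ZT2 replicate 1 (1.81 CPM), Nfil3 in ZT20 replicate 3 (52.5 CPM) and Tmed3 in ZT8 replicate 3 (23.1 CPM).

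The 12 h contrast differed between diets by edgeR's test of the difference for 10 genes. Chow minus cdHFD was 1.67 on the log2 scale for Zfp9, -0.81 for Cry2, 0.80 for Golt1b, 0.77 for Nfxl1, 0.998 for Tmem39a, 1.09 for Alg12, -0.99 for Eepd1, 2.37 for Gm2004, -1.38 for Hacl1 and -0.84 for Prkca.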

How the results depend on the processing

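Against 844 calls of the 12 h contrast in chow, of which 717 alternated strictly, no expression filter gave 2245 and 1756, DESeq2 1793 and 1480, and a fit of all 32 libraries 1883 and 1578. Calls numbered 474 and 413 without the sex term, 12 and 7 with log2 mitochondrial share as covariate, 0 and 0 with log2 total counts (1284 at an unadjusted p below 0.05), 1 and 0 with both, and 0 and 0 with the log2 share of CT010467.1 (796 unadjusted). Males alone gave 7 and 5, females alone 48 and 40, and both libraries above 12% mitochondrial share left out 115 and 90. The last and the CT010467.1 covariate, like thinning to the smallest total (710) and limma voom (735), were chosen after seeing the data. Leaving out single libraries gave 195 to 2462 calls and 164 to 1993 in strict order. RLE size factors (817), total counts alone (772), a filter of 1 CPM in 8 libraries (791) and removal of mitochondrial genes (799) stayed within 1.5 times.

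The replicate numbers do not pair the samples: of 24 same-numbered pairs 5 had correlated deviations over 0.1 (r from -0.56 to 0.58), and 5 of 16 libraries correlated best with their own number. The replicate block, used in place of sex, called 757 genes.

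The 24 h components called 1678 to 3272 genes without single libraries and 3898 with all 32, against 2509. The difference between diets was called for 5 to 18 genes without single libraries, 6 under total counts alone and 410 without a filter. The difference between sexes was called for 0 to 1 and 56, against 0. The other pairing of the half-cycles called 311 and 540 genes, with 64.6% of the first list of the same sign in the second. The difference in mitochondrial share was 2.17 to 3.20 percentage points without single libraries, 1.61 in males (exact permutation p = 0.286), 3.77 in females (p = 0.0857) and 1.54 without both libraries above 12% (p = 0.0633). The difference in total counts was -9.59 to -6.15 M without single libraries and -2.93 M in males (exact permutation p = 0.314) and -13.2 M in females (p = 0.0286).

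Among the named genes, signs reversed for these log2 differences. With the mitochondrial covariate they were mt-Nd2 (-0.00104), mt-Co2 (-0.0342), mt-Co1 (-0.0463), mt-Nd3 (-0.0318), mt-Atp6 (-0.104), mt-Co3 (-0.187), mt-Nd5 (-0.0735), mt-Nd4l (-0.354) and Hacl1 (-0.0827). With both covariates they were mt-Co1 (-0.128), mt-Atp6 (-0.131), mt-Nd5 (-0.098), mt-Nd4l (-0.152) and Hacl1 (-0.275). With the CT010467.1 covariate the called genes Noxred1 (-0.0562), Btc (0.0717) and Rn7sk (-0.197) reversed, and so did Ctsl (0.0696). Of all 844 called genes, named or not, 832 kept their sign with that covariate, and 843 did in males alone. Hacl1 was -0.188 with total counts as covariate and -0.164 in males. For mt-Nd4l, 0.03 in the report, the value was -0.0380 under total counts alone, -0.0166 without a filter, -0.0732 under the replicate block, -0.0147 in females and -0.0742 under limma voom. Without single libraries it lay between -0.327 and 0.240, below 0 without ZT2 replicate 2, ZT8 replicates 2 or 4, ZT14 replicate 3 or ZT20 replicates 1, 2 or 3. The causes of these changes were not tested. Genes near or under 1 CPM, such as Bhlha15, Hspa1a, Krt23 and Gm2004, rest on few counts, and their values carry counting error beside the spread between livers.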
